A study of Mus musculus with 8 samples.

Results

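The miR-7 family was followed in cultured microvascular smooth muscle cells (mVSM) of male C57BL6 mice lacking Rap1a, a Ras-related GTPase with a part in cell adhesion. Its members were found by name among the array's probes for miRNAs of mouse and viruses. They were mmu-miR-7a, mmu-miR-7b and mmu-miR-7a* (miR-7a, miR-7b and miR-7a* from here on), 3 of the 650 miRNAs on the array, with 6 of its 1857 probes and 60 of its 13000 spots. All groups shared the Rap1a -/- background. The 4 vector cultures had been transduced with the empty shuttle vector and the 4 RapCA cultures with a shuttle vector carrying RapCA, a construct that the labels do not describe further. Cells grew in 10% serum, were transduced overnight in medium without serum, then kept for 48 h with 0.5% serum. Cy3-labelled total RNA of each culture went onto its own miRNA array. The labels call the 4 arrays of a group biological replicates and do not say whether they came from separate animals. The family was proposed from the RapCA against vector difference of miR-7a in these same arrays. Its values and calls in that comparison are therefore a description and not a test of it.

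MicroRNAs are short RNAs that guide repression of mRNAs, chiefly through pairing of the seed, bases 2 to 8 from the 5′ end. miR-7 is an ancient family with its highest levels in neurons and in endocrine cells of the pancreas and pituitary. In human cells its targets include the mRNA for the EGF receptor, a growth factor receptor at the cell surface. The circular RNA Cdr1as, abundant in mammalian brain, carries many miR-7 sites, and miR-671 directs its cleavage.

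The sequences are shown because the guide strands of miR-7a and miR-7b share a seed and differ at a single base, so that the probes of either are aimed at nearly the same RNA. They come from the RefSeq table of build GRCm38.p6, in which all 3 miR-7 genes had an entry. Capitals mark the seed, and all sequences run 5′ to 3′.
miR-7a-5p: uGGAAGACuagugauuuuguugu
miR-7b-5p: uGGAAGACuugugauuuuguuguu
miR-7a-1-3p: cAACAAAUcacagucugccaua
miR-7a-2-3p: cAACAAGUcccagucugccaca
miR-7b-3p: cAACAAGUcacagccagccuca
Counting from 1 at the 5′ end, miR-7a-5p and miR-7b-5p differed by A10U over 23 positions, and miR-7b-5p had 1 further base at its 3′ end. Among 1679 mature mouse miRNA names in the table, the seed GGAAGAC belonged to 2, these guide strands. The passenger strands are less alike. Relative to miR-7a-1-3p, miR-7a-2-3p had A7G, A10C and U21C, of which A7G lies in the seed.

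miR-7a comes from a pair of hairpins, shown next with both mature arms in capitals, because one guide sequence has 2 sources that an array cannot separate.
Mir7-1: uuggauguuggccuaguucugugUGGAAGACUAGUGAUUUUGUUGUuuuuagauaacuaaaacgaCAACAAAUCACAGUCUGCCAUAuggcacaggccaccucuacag
Mir7-2: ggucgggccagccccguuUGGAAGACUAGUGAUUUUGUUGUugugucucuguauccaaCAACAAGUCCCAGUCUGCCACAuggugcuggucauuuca
Mir7b: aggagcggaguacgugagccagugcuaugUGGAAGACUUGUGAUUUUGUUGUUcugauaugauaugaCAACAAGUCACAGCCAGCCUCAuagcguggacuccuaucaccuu
Mir7-1 lies at chr13:58392779-58392886 on the minus strand, inside Hnrnpk (chr13:58391132-58403343, same strand), which encodes an RNA-binding protein of most cells. Mir7-2 lies at chr7:78888277-78888373 and Mir7b at chr17:56242988-56243098, both on the plus strand, and neither overlapped another gene in the table. The array name miR-7a* does not say which of the 3p arms its probes were designed for, and probe sequences were not used here.

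The miR-7a signal came from 1 of its 2 probes. Probe A_54_P2659, with 10 spots per array, had a mean processed signal of 9.38 on vector replicate 1, 14.7 on replicate 2, 10.7 on replicate 3 and 4.47 on replicate 4. On the RapCA arrays it had 61.3 on replicate 1, 20.9 on replicate 2, 23.4 on replicate 3 and 20.6 on replicate 4. Processed signal is spot brightness in arbitrary units with background subtracted, before any scaling between arrays. The lowest RapCA array was thus above the highest vector array, and RapCA replicate 1 was far above the other 3.

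Detection differed in the same way. On the RapCA arrays every kept spot of A_54_P2659 was flagged well above background by the scanner software. On the vector arrays 1 of 10 kept spots was flagged on replicate 1, 7 of 9 on replicate 2, 5 of 7 on replicate 3 and 0 of 9 on replicate 4. A probe was taken as detected on an array if this flag was set for a share of more than 0.5 of the spots kept. By that measure miR-7a was detected on 2 of 4 vector and 4 of 4 RapCA arrays. The software's own call, made per miRNA, marked miR-7a as detected on 7 of 8 arrays, all but vector replicate 4.

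The other probe of miR-7a, A_54_P2658, was not detected on any array. Its mean processed signal was -1.16, -1.14, -1.51 and 0.04 on vector replicates 1 to 4. On RapCA replicate 1 it was 5.02, and on RapCA replicates 2 to 4 it was -0.98, 1.20 and 0.61. The limit set by the negative-control spots, their 95th percentile on each array, ran from 5.20 to 6.54. Of 77 kept spots over all arrays, 3 were above that limit, all on RapCA replicate 1, the array on which the bright probe was also highest. Both probes carry the same miRNA name, so the miR-7a values that follow rest on 1 probe. A probe left out as dim was common: of the 168 miRNAs tested on the array, 59 had at least 1.

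**Figure D1:**
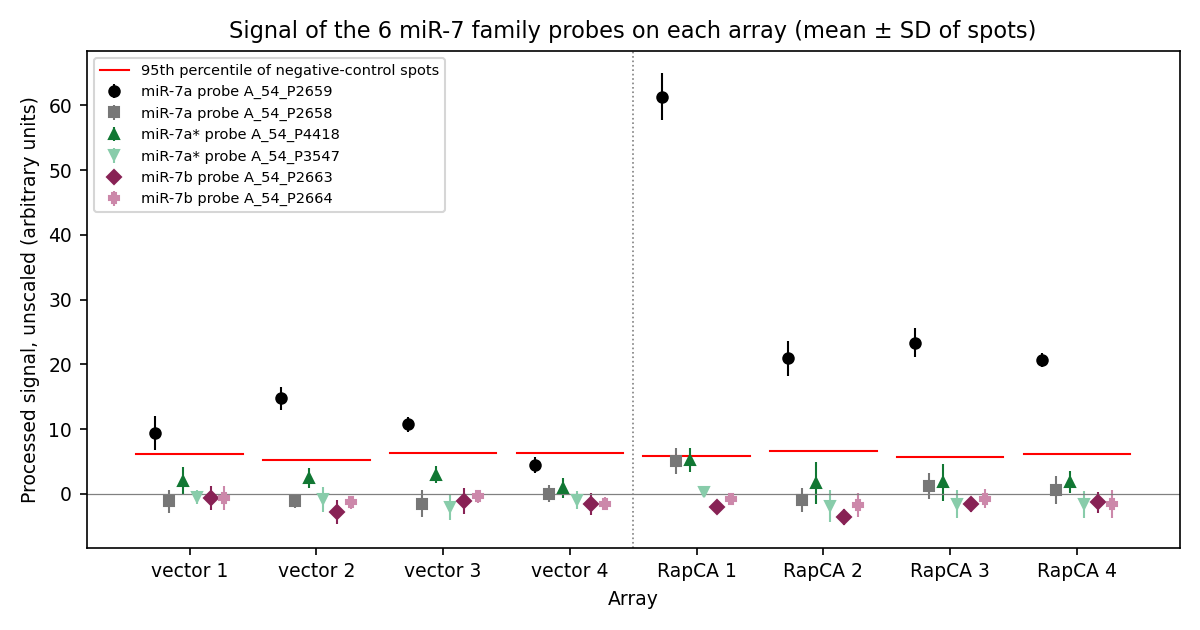
Mean processed signal before scaling (vertical axis, arbitrary units, bars are the SD of the kept spots) of the 6 miR-7 family probes on each of the 8 arrays (horizontal axis), with the 95th percentile of negative-control spots as a red line. Only probe A_54_P2659 of miR-7a stands clear of the line, on 7 of 8 arrays, with 4.47 on vector replicate 4 below it.

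miR-7b, the second guide strand with this seed, gave no signal above background. Its probe A_54_P2663 ranged from -2.79 to -0.58 on the vector arrays and from -3.58 to -1.34 on the RapCA arrays. Probe A_54_P2664 ranged from -1.55 to -0.39 and from -1.75 to -0.74. Of the 152 kept spots of miR-7b, 0 were well above background and 0 were above the negative-control limit. No fold is given for miR-7b, and its level was not measurable in either group.

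miR-7a*, the passenger strand, was not detected either, with 0 of 154 kept spots well above background. Its probe A_54_P3547 ranged from -2.04 to 0.30 over the 8 arrays. Probe A_54_P4418 had 1.96, 2.43, 2.94 and 0.95 on vector replicates 1 to 4, then 5.21 on RapCA replicate 1 and 1.67, 1.81 and 1.81 on the other RapCA arrays. Of its 78 kept spots, 5 were above the negative-control limit, 4 of them on RapCA replicate 1. No fold is given for miR-7a*.

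Repeated spots gave the precision of a single array. The SD of the 8 to 10 kept spots of A_54_P2659 on the RapCA arrays was 3.60, 2.74, 2.28 and 1.11, or 5.37% to 13.1% of their mean. On the vector arrays, where 7 to 10 spots were kept, the SD was 2.61, 1.76, 1.13 and 1.30. Spots of one array share 1 RNA sample, so these values describe the hybridisation and not the cultures. The 57.1 of the dimmest spot on RapCA replicate 1 was above the 27.3 of the brightest on RapCA replicate 3, the next highest array.

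The arrays themselves differed in brightness. The summed total gene signal, the software's value per miRNA added over the array, was 59506 to 81972 on the vector arrays and 26374 to 56618 on the RapCA arrays. RapCA replicate 1 had the 56618, and the other 3 RapCA arrays had at most 29218. The 4 spike-in RNAs read 1254 ± 108 on vector and 1255 ± 129 on RapCA arrays (geometric mean, SD over n = 4 each). All vector arrays had 1 as the first index of their slide position and all RapCA arrays 2, per the file headers, so position and group cannot be told apart. The mean summed signal of the RapCA arrays was 0.503 times that of the vector arrays, while every RapCA array read higher for miR-7a. What part these differences have in the miR-7a values was not tested.

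Before scaling, mean miR-7a signal was 9.83 ± 4.23 in vector and 31.6 ± 19.9 in RapCA cultures (processed signal, SD, n = 4 each), 3.21 times as high. Without RapCA replicate 1 the ratio was 2.20. Relative to the spike-ins, miR-7a stood at 0.79% ± 0.36 of their mean in vector and 2.59% ± 1.78 in RapCA cultures, a ratio of 3.28, or 2.16 without RapCA replicate 1. The groups did not overlap on either scale, but within RapCA the coefficient of variation was 63.0% for the unscaled signal. Relative to the spike-ins the gap was narrow, with 1.23% on the highest vector array and 1.44% on the lowest RapCA array. Without scaling, all RapCA arrays were above all vector arrays for 9 of 168 tested miRNAs, 5.36%, miR-7a included. The same share relative to the spike-ins was not counted.

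Arrays were next scaled to one 75th percentile, taken from the 189 probes that all 8 arrays detected, and the RapCA arrays drew together. Scaled miR-7a signal was 44.6, 40.3, 40.8 and 37.1 on RapCA replicates 1 to 4, a coefficient of variation of 7.47%. The vector arrays had 6.56, 9.47, 6.24 and 3.88. The group means were 6.54 ± 2.29 and 40.7 ± 3.04 (SD, n = 4 each), 6.23 times as high in RapCA, and 6.03 times without RapCA replicate 1. The lowest RapCA array was 3.92 times the highest vector array. On 2 of the 4 vector arrays the probe was not detected, which makes the vector mean and every such ratio uncertain.

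As a share of the array, miR-7a made up 96.1, 131, 84.9 and 1.68 ppm of the summed total gene signal on vector replicates 1 to 4. The last of these is a placeholder of 0.1 that the software writes for a miRNA it does not detect. On RapCA replicates 1 to 4 the share was 716, 527, 533 and 489 ppm. Each RapCA share was at least 3.74 times the highest vector share. How many other miRNAs were separated in ppm was not counted.

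**Figure D2:**
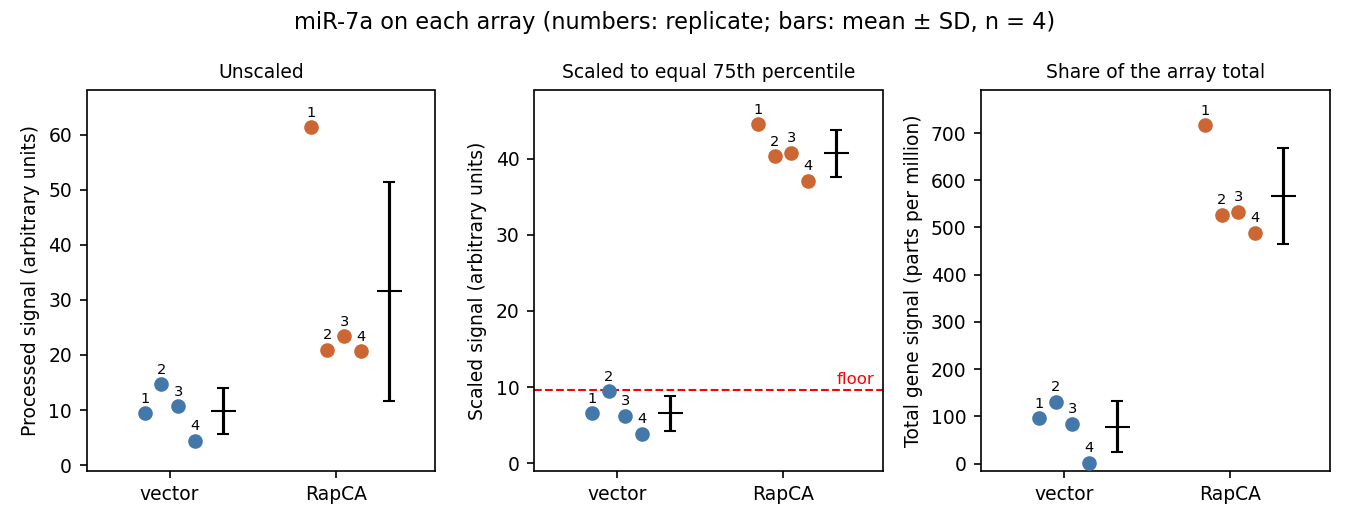
miR-7a on each array as unscaled processed signal, as scaled signal and as ppm of the summed total gene signal (vertical axes), for 4 vector and 4 RapCA cultures (numbered points; bars are mean ± SD, n = 4). RapCA replicate 1 stands at 61.3 before scaling and at 44.6 after it, beside 37.1 to 40.8 for the other RapCA arrays, and all vector arrays lie below the scaled floor of 9.61.

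For the fit across miRNAs, scaled signals of single spots below a floor of 9.61 (3.26 on the log2 scale) were set to it before taking log2. On that scale miR-7a went from 3.28 ± 0.03 in vector to 5.34 ± 0.11 in RapCA cultures (log2 signal, SD, n = 4 each), a log2 change of 2.06 ± 0.08 (SE of limma's fit). The floor held 3 of the 4 vector arrays at 3.26. Neither the vector SD nor the SE of the change therefore shows the spread of the cultures there. With a floor at 1 the change was 2.74 ± 0.24, and with total gene signal it was 2.72 ± 0.30 (SE). The unfloored group means gave a log2 ratio of 2.64. With a floor 4 times higher it was 0.11, since that floor lies near the RapCA signal itself, and miR-7a was not called raised there.

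In that fit limma called 44 of 168 tested miRNAs raised, 26.2% of them, and 84 lowered, 50.0%, at an adjusted p under 0.05. miR-7a was among the raised, and its 2 relatives were not tested because no probe of theirs was detected. After scaling, all 4 RapCA arrays were above all 4 vector arrays for 21.4% of tested miRNAs, miR-7a included, and below them for 46.4%. miR-7a passed the detection filter through its RapCA arrays alone. Since miR-7a was chosen from this comparison, its place in these counts is a description.

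Without scaling, miR-7a had a log2 change of 1.12 ± 0.34 (SE), while the median tested miRNA had -1.03. limma then called 10 miRNAs raised, 5.95% of 168, and 113 lowered, 67.3%. miR-7a was among the raised, a description since it was chosen from this comparison. It ranked 4 of 168 by unscaled change and 6 of 168 by scaled change. The RapCA arrays were all above the vector arrays for 9 miRNAs without scaling, 5.36%, miR-7a included, and all below them for 92, 54.8%. On the unscaled log2 signal, floored at 12.3, miR-7a had 3.68 ± 0.13 in vector and 4.80 ± 0.76 in RapCA cultures (SD, n = 4 each). Its distance from the median of tested miRNAs was 2.36 after scaling and 2.16 before it.

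The miRNAs ranked around miR-7a by scaled change were miR-135a* (2.08 ± 0.15) and miR-689 (2.07 ± 0.19) above it, and miR-19a (1.96 ± 0.28) and miR-709 (1.90 ± 0.23) below it (log2 change ± SE, n = 4 per group). miR-19a belongs to the growth-promoting miR-17/miR-92a cluster. The gaps between these neighbours are within their standard errors, so their order is not resolved.

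**Figure D3:**
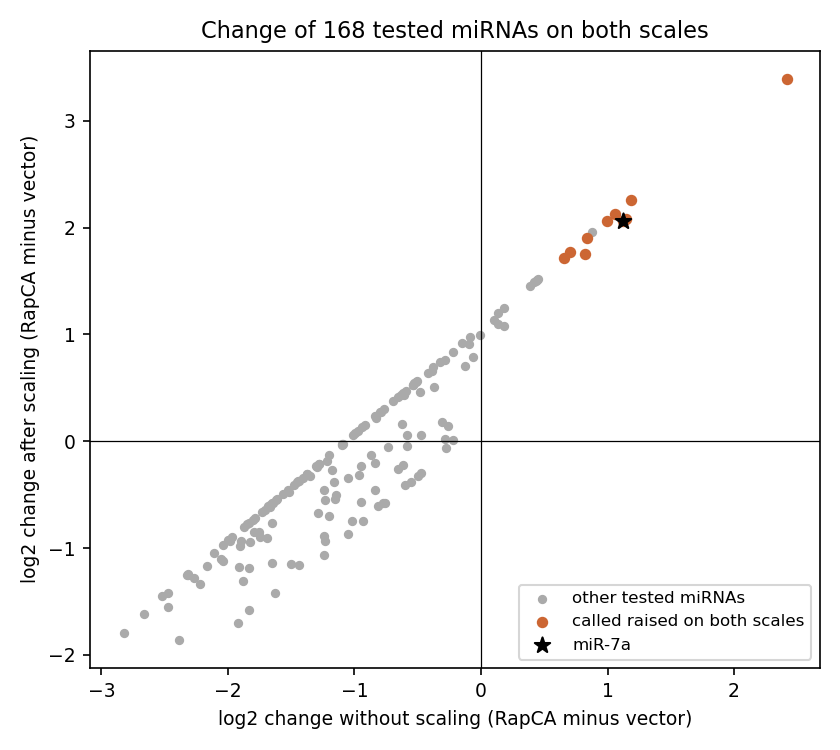
log2 change of the 168 tested miRNAs without scaling (horizontal axis) and after scaling (vertical axis), RapCA minus vector. miR-7a (star) lies at 1.12 and 2.06 among the 10 miRNAs called raised on both scales (the others in orange), while most of the 168 lie left of 0 without scaling. Since miR-7a was chosen from this comparison, its place among the 10 is a description.

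Among the 10 miRNAs called raised without scaling, the bright RapCA replicate 1 stood furthest from the other RapCA arrays for miR-7a. It exceeded their mean by 1.51 for miR-7a (unscaled log2 signal). For the 9 others the same gap was 0.39 (miR-714) to 0.84 (miR-188-5p). Over all 168 tested miRNAs the median gap was 0.96, and 23 had a larger gap than miR-7a. After scaling, the gap of miR-7a was 0.18 and the median gap was -0.09. These values come from 1 array against 3, and no test was made of them.

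By Pearson correlation of scaled log2 signal over the 8 arrays, the tested miRNAs most like miR-7a were miR-494 (0.986), miR-20a (0.979), miR-20b (0.978), miR-155 (0.978), miR-188-5p and miR-714 (both 0.970). miR-20a and miR-20b are members of the miR-17 family, and miR-155 is induced in inflammation. On unscaled signal they were miR-92a (0.947), miR-1895 (0.944), miR-494 (0.924), miR-188-5p (0.920), miR-135a* (0.917) and miR-685 (0.908). The lists shared miR-494 and miR-188-5p. The 8 points form 2 groups and share array brightness and the floor, so these values carry the difference between the groups. Each of the 6 named for scaled signal was detected on all 4 vector arrays, where miR-7a was detected on 2.

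The authors' deposited table of 54 selected miRNAs lists miR-7a and no other family member. Its whole-number values, whose normalization is not stated, are 9, 10, 8 and 6 for vector replicates 1 to 4 and 37, 35, 30 and 28 for RapCA replicates 1 to 4. These values come from the same 8 arrays and from miRNAs the authors selected, so they are not a second measurement. The groups do not overlap for miR-7a in the authors' deposited table, and vector replicate 4 is lowest. How many of the 54 selected miRNAs also show no overlap was not counted, so this is not a trait particular to miR-7a. RapCA replicate 1 is highest there but close to replicate 2.

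The partners of miR-7 in the Cdr1as circuit gave little signal. miR-671-5p, which directs the cleavage of Cdr1as, was detected on 1 of 4 RapCA arrays and on no vector array, and miR-671-3p on no array (0 of 8). Of 12 miRNAs enriched in neurons or endocrine cells, where miR-7 is most abundant, 4 were detected on any array and 2 could be tested. miR-129-3p had 0.69 ± 0.12, called raised, after scaling and -0.38, not called, without it (log2 change ± SE, n = 4 per group). miR-218, detected on 4 vector arrays but 1 RapCA array, had -0.12 ± 0.23 after scaling and -0.87 without it, not called on either scale. miR-128 was detected on 2 vector arrays and 1 RapCA array, and miR-129-5p on 1 RapCA array, so neither was tested. miR-375 and miR-124, defining miRNAs of endocrine cells and neurons, were not detected on any array. The summed total gene signal of these 12 was 50.9 to 87.4 on vector and 18.1 to 93.1 on RapCA arrays, so the ranges overlapped.

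Markers of cell type were read beside these values. Of the smooth muscle list, 5 of 6 miRNAs on the array were detected, with miR-143 and miR-21 on all 8 arrays, and miR-145 on all 4 vector arrays but no RapCA array. miR-143 had a log2 change of -1.62 ± 0.15 and miR-145 of -0.75 ± 0.10, both called lowered, and miR-222 of 1.00 ± 0.11, called raised, with -0.01 without scaling, not called. The RapCA mean of miR-145, 3.27, lay almost at the log2 floor of 3.26. The floor thus limits the size of its change, and its SE does not show the spread of the RapCA cultures. miR-21 (-0.03) and miR-221 (0.07) were not called after scaling, but without scaling they had -1.10 and -0.996, both called lowered. None of the 2 endothelial, 5 blood and 5 epithelial markers was detected on any array, and their summed signals stood at the software's placeholder on each (0.2, 0.5 and 0.5). The smooth muscle list's summed total gene signal was 5680 to 10585 on vector and 2489 to 8937 on RapCA arrays. miR-21 was far brighter than miR-143, with a mean scaled log2 signal of 11.6 in both groups. miR-143 had 6.94 in vector and 5.32 in RapCA cultures. The sum thus mainly reflects miR-21 and does not show the change of miR-143 or miR-145. For the higher miR-7a of the RapCA cultures, a bulk array cannot tell apart more cells carrying it and more of it per cell.

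Across 25 settings of scaling, background, floor, filter and samples that gave miR-7a a value, its change was above 0 in 25, from 0.11 to 2.74. The settings reuse the arrays from which miR-7a was chosen, so they describe only how its size depends on processing and samples. Leaving out each array in turn gave 1.90 to 2.24. The value without the detection filter was 1.03, where the dim probe, with a mean under the floor on every array, is averaged with the bright one. Normexp background correction with an offset of 50 gave 1.04 beside a median of 0.37 for all tested miRNAs.

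**Figure D4:**
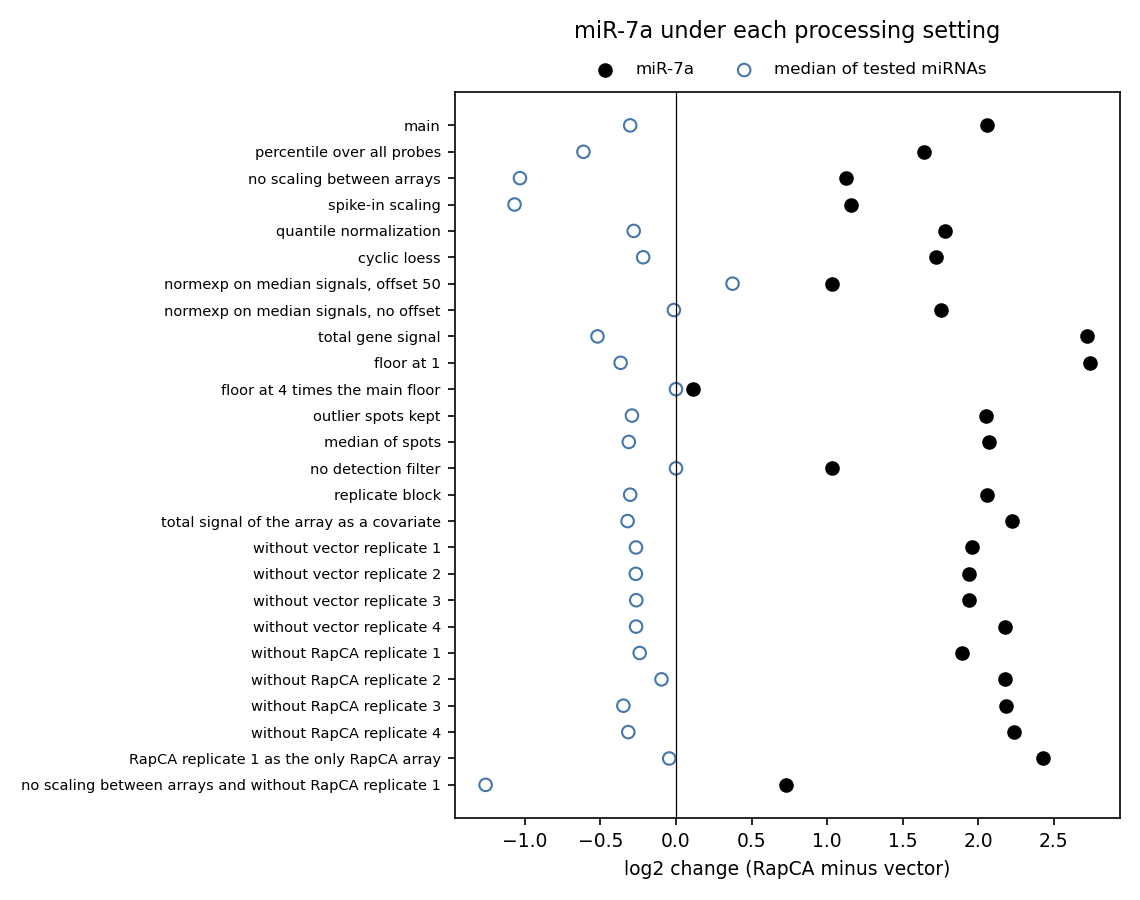
log2 change of miR-7a (filled) and median log2 change of tested miRNAs (open), RapCA minus vector (horizontal axis), under each processing setting (vertical axis). miR-7a lies right of the median in every setting shown, by 0.11 with the floor raised 4 times and by 0.66 to 3.24 in the others.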

How the data were processed

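Agilent Feature Extraction 10.7.3.1 produced the deposited spot intensity, per the file headers (version 10.7 in the submitters' processing notes). The authors' processed intensity has background subtracted and no scaling between arrays. The deposited series-wide value table held the same intensity values, with 0 of 13715 spots differing on any array.

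Controls were dropped, as were spots flagged as outliers for non-uniformity or within their population (2.98% to 4.66% per array, 24 of 480 miR-7 family spots). No spot was left out for saturation. After scaling, flooring and log2, spots were averaged by probe. A miRNA's probes were averaged if detected throughout 1 group or both. limma 3.58.1 (R 4.3.3) fitted the groups with no covariate, with Benjamini-Hochberg adjustment over 168 miRNAs.

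The fit was tested on simulated data, and that test was revised after its first results. Every design recovered all the changed miRNAs, which were drawn only from miRNAs with a high mean signal. miR-7a, whose vector arrays lay at or near the floor, was not among those drawn from. Recovery of a change in a miRNA like it was therefore not tested. When a larger share of miRNAs was simulated as changed, as in the first designs, the 75th percentile scaling shifted and many unchanged miRNAs were called lowered or raised. The designs with fewer changes, and with none, gave few such calls or none. How many miRNAs truly changed in the real arrays is not known, so some of the raised and lowered calls may come from the scaling.

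Members, lists and naming rules were chosen with earlier results of these data known. Named were members, detected list miRNAs and defining markers, the 6 most correlated with miR-7a on each scale, miRNAs called raised without scaling, and 2 on either side of miR-7a by change. P-values behind the calls rest on the spread between arrays, in which culture and hybridisation cannot be told apart since each culture had its own array. limma also draws the spread of each miRNA towards that of the others, and the floor removes spread from dim ones. The number of arrays limits precision. Alternatives are in the closing section.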

Additional observations from a re-analysis of the deposited data

Results flagged for a closer look

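A single array was checked within its group of 4, vector or RapCA, 22 times. In 6 checks the gap to the nearest array was past Dixon's 95% critical value. All 6 were of RapCA replicate 1, which stood apart from the other RapCA arrays. Chance flags about 1 in 20 such checks where they are independent. These share the same 8 arrays, and several express the same miR-7a probe signal in another unit, so their count cannot be set against that rate. Before scaling, the miR-7a signal of RapCA replicate 1 was 61.3, next to 23.4 on RapCA replicate 3. Its miR-7a total gene signal was 40.6, next to 15.6, and its miR-7a signal as a percent of the spike-in mean was 5.23, next to 2.03. The same array had a summed total gene signal of 56618, next to 29218. Of the miR-7a* probes, A_54_P4418 had 5.21 there, next to 1.81, and A_54_P3547 had 0.30, next to -1.52, although neither was detected. After scaling, miR-7a on this array (44.6, next to 40.8) no longer stood apart by this measure.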

How the results depend on the processing

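miR-7a had a log2 change of 2.06 and kept its sign in 25 of 25 alternatives. All of them used these same arrays, from whose difference miR-7a was chosen, so the kept sign is no independent support. Taking the percentile from all probes gave 1.64, and it was 1.12 without scaling, 1.16 with spike-in scaling, 1.78 with quantile normalization and 1.72 with cyclic loess. Normexp gave 1.04 with an offset of 50 and 1.75 without one, total gene signal 2.72, a floor at 1 gave 2.74 and one 4 times the main floor 0.11, where miR-7a was not called raised. No detection filter gave 1.03, total signal as a covariate 2.23, RapCA replicate 1 as the only RapCA array 2.43 (a lone sample, assumed to vary like the vector arrays), and no scaling without RapCA replicate 1 gave 0.73. The count of 44 raised was 28 with all probes in the percentile, 10 without scaling (10 also without RapCA replicate 1), 9 with spike-in scaling, 81 with normexp and an offset of 50, and 23 with the higher floor. The count of 84 lowered was 20 with normexp and an offset, 54 with normexp and no offset, and 140 without scaling and RapCA replicate 1. Probes detected on all 8 arrays leave 115 tested miRNAs, of which 57 were lowered and 35 raised, and no value for miR-7a. Leaving out 1 array gave 1.90 to 2.24, 39 to 49 raised and 61 to 85 lowered. With the replicate number as a block, miR-7a had 2.06, with 41 raised and 77 lowered. The replicate numbers showed no pairing of the cultures in a check of deviations from the group means. These deviations correlated at -0.65, -0.60, -0.55 and 0.63, and 1 of 4 vector arrays matched its own number best. With 4 arrays per group, which share large brightness differences, this check cannot exclude pairing. Normexp on median signals and the setting that combines no scaling with leaving out RapCA replicate 1 were chosen after seeing the data. Planned normexp on mean signals was not run. miR-7b and miR-7a* stayed undetected (0 arrays) with outlier spots kept, and have no change under any setting reported.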

Other observations

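Few miRNAs shared the detection pattern of miR-7a. Of 216 miRNAs detected on at least 1 array, 74 were detected on fewer RapCA than vector arrays and 23 on more. Detection on all 4 RapCA arrays and on fewer vector arrays was seen for 6: miR-7a, miR-135a*, miR-1895 and miR-467f with 2 vector arrays each, and miR-702 and miR-877* with 3. The opposite, all 4 vector arrays and fewer RapCA arrays, was seen for 48. Of 6 heart and skeletal muscle miRNAs, miR-206 was detected, on all 8 arrays, with a log2 change of 0.06 ± 0.10 (SE) after scaling, not called, and -0.58 without scaling, called lowered. The other 5 were not detected on any array. The summed total gene signal of these 6 was 36.5 to 47.1 on vector and 14.7 to 41.6 on RapCA arrays.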
